A study of Rattus norvegicus with 6 samples.

Results

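The genes described here encode the regulators that decide which exons of a pre-mRNA are joined and where its 3′ end is cut. They are the SR proteins (Srsf genes), Tra2a and Tra2b, the heterogeneous nuclear ribonucleoproteins (hnRNPs), and the polypyrimidine tract binding (Ptbp), CELF, muscleblind (Mbnl) and cleavage and polyadenylation specificity factor (Cpsf) families. Members were chosen by symbol, and 53 of the 22608 symbols in the table matched. Of these, 49 reached 1 FPKM in at least 3 of the 6 libraries and are the members described, among 12373 genes that reached it. FPKM scales fragment counts by transcript length and by library size. The other 4 stayed below 1 FPKM in every library. Mbnl3 had 0.690 to 0.731 FPKM in BHB libraries and 0.692 to 0.866 FPKM in control libraries, Celf6 and Cpsf4l did not exceed 0.298 FPKM, and Srsf8 was listed at 0.

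Poly(A) RNA was sequenced from 3 libraries of rat primary brain astrocytes treated with β-hydroxybutyrate (BHB), the main circulating ketone body, and from 3 libraries of control astrocytes. The dose, read from the column names, was 2 mM BHB. No source used here gives the strain, age, sex or treatment time, or says whether replicate libraries were made from different cultures. The p-values therefore cover library-to-library spread, which may be technical. The series is about glutamate uptake by astrocytes under BHB, and for the splicing regulators the comparison shows whether their mRNA levels differed with treatment.

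SR proteins bind exonic sequences through an RNA recognition motif and recruit the splicing machinery through a tail rich in arginine and serine, which usually favours inclusion of the exon. Many hnRNPs bind introns or exons and favour skipping, so the balance between the classes sets the outcome at many exons. In brain, Ptbp1 is high in glia and progenitors and represses exons used in neurons, whereas its paralogue Ptbp2 is high in developing neurons. Much of the control of these proteins lies in phosphorylation, localisation and splicing of their own transcripts, which a table of one value per gene does not show.

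The libraries were similar in scale, with 361730 to 367448 summed FPKM in BHB libraries and 354565 to 365566 in control libraries. All 11 astrocyte markers reached 1 FPKM in at least 3 libraries, with summed levels of 5309 to 5322 FPKM in BHB libraries and 4891 to 5150 FPKM in control libraries. Gfap had 1517 ± 41.7 FPKM with BHB and 1438 ± 59.5 FPKM in controls, and Aqp4, the astrocyte water channel, had 60.3 ± 3.12 and 58.6 ± 2.12 FPKM in BHB and control libraries (SD, n = 3 each). The list and its sums include the glutamate transporter gene Slc1a3, with 455 ± 11.6 FPKM in BHB libraries and 203 ± 5.003 FPKM in controls (SD, n = 3 each). Slc1a3 was the 1 astrocyte marker that passed the limma test described below (adjusted p = 1.64e-05), and it raises the sums with BHB. Of the 11 markers 7 had a log2 fold change above 0 and 4 below 0, with a median of 0.02. The sums are therefore no measure of astrocyte content between groups. Neuron markers summed to 94.5 to 97.2 FPKM with BHB and 95.5 to 97.0 FPKM in controls, microglia markers to 20.7 to 21.3 and 20.6 to 22.3 FPKM, and fibroblast and mural cell markers to 1640.5 to 1814 and 1602 to 1731 FPKM, in BHB and control libraries in each case. Oligodendrocyte lineage markers summed to 19.8 to 21.5 FPKM with BHB and 20.1 to 25.1 FPKM in controls, ependymal markers to 29.6 to 32.7 and 32.2 to 35.1 FPKM, and endothelial markers, with Cldn5 listed at 0, to 0.581 to 0.765 and 0.707 to 0.935 FPKM. In bulk RNA, fewer cells of a type and less RNA per cell cannot be told apart.

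Splicing regulators were abundant. The 49 members held 0.954% to 0.999% of the summed FPKM in BHB libraries and 0.982% to 1.01% in control libraries. Their median level over the 6 libraries was 51.4 FPKM, against 10.6 FPKM for all genes tested. The highest library exceeded the lowest by less than 1.2-fold in 37 of the 49 members, or 75.5%, against 48.8% of all genes tested, and by at least 1.5-fold in 5, or 10.2%, against 12.5%. Among the 42 members with a mean of at least 10 FPKM the median of this ratio was 1.13, against 1.15 among the 6401 tested genes at that level. It was under 1.2 in 34 of those 42 members, against 70.4% of those genes, and at least 1.5 in 3, or 7.14%, against 3.27%.

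No member passed the test of BHB against control, made with limma over all genes tested and adjusted by the Benjamini-Hochberg method (threshold 0.05). Over all genes tested 0.0566% passed. At an unadjusted p under 0.05 there were 3 members (6.12%), against 5.59% of all genes tested, which is near the background. They were Srsf9 and Hnrnpf, higher with BHB (3.45% of all genes tested), and Hnrnpul2, lower with BHB (2.14%). The groups did not overlap in 2 members, Srsf9 and Hnrnpul2, or 4.08%, against 10.9% of all genes tested (6.43% with BHB higher, as Srsf9, and 4.45% with BHB lower, as Hnrnpul2). The log2 fold change (BHB over control, on the log2(FPKM + 1) scale) was below 0 in 34 of 49 members, or 69.4%, against 48.5% of all genes tested. The median over the members was -0.02, against 0.0029 over all genes tested. Without BHB 2 the number below 0 was 28, against 47.9% of all genes tested.

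**Figure D1:**
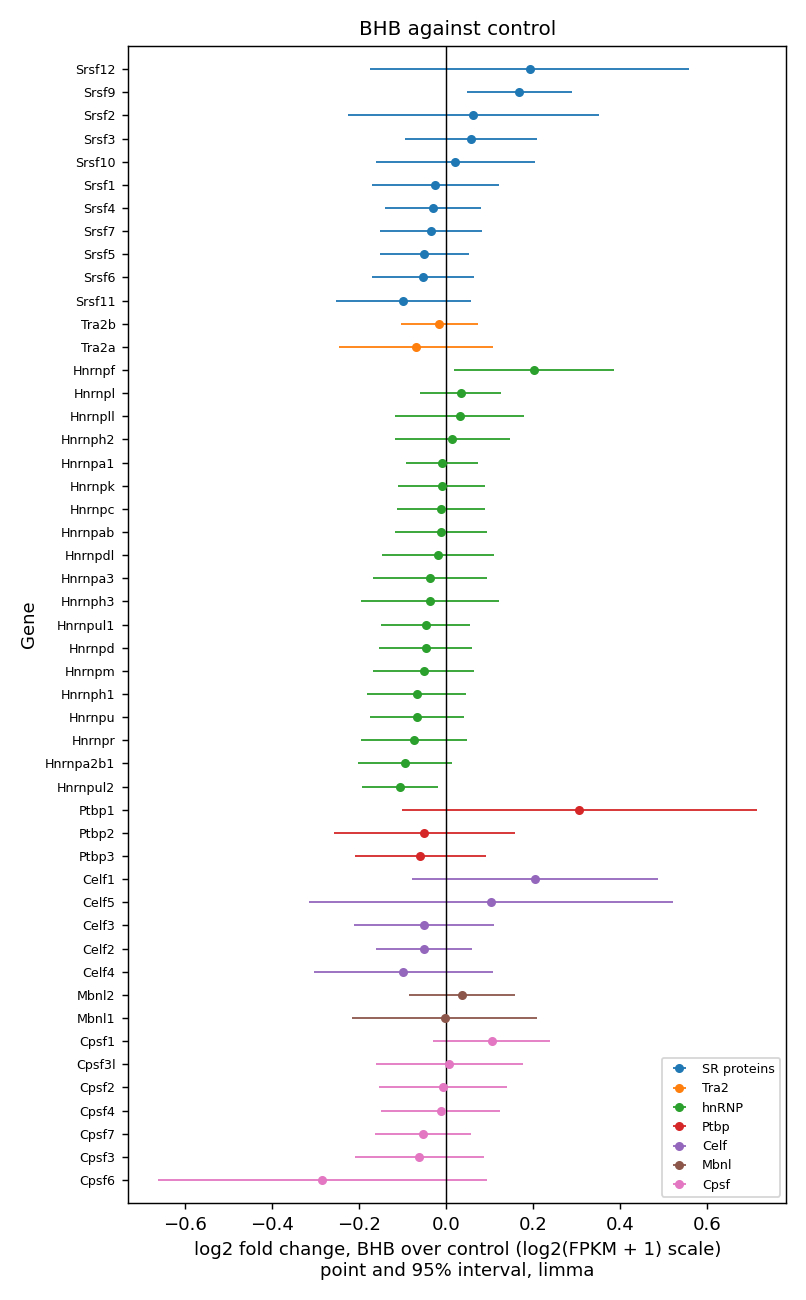
Log2 fold change of each of the 49 members, BHB over control on the log2(FPKM + 1) scale (x axis), with genes on the y axis grouped by family. Points are the limma estimates and lines their 95% intervals. Only the intervals of Srsf9, Hnrnpf and Hnrnpul2 leave out 0, and those of Ptbp1 and Cpsf6 are among the widest.

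What set single members apart was a library at another level. A gene was counted as having libraries at separate levels when its 6 sorted values parted at a gap of at least 1.5-fold on the FPKM + 1 scale that was larger than the range on either side. Ptbp1 and Cpsf6 met this, 2 of 49 members or 4.08%, against 1.66% of all genes tested, and in both a single library was apart, as in 1.02% of all genes tested. The next member outside the limit was Srsf12, with a gap of 1.38-fold, and after it Celf5, with 1.32-fold. Celf5 had a mean of 1.07 FPKM, where the added 1 narrows gaps. In FPKM its lowest library, control 3, lay 2.00-fold below the next, against 1.58-fold for Cpsf6 in BHB 1. With 0.1 added in place of 1, Celf5 also met the limit, so this list depends on the value added.

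Ptbp1, the polypyrimidine tract binding protein, stood at 73.7, 129 and 79.5 FPKM in BHB 1, 2 and 3, against 74.0, 72.8 and 73.5 FPKM in control 1, 2 and 3. BHB 2 was 1.72 times the mean of the other 5 libraries, which lay close together, so the groups overlapped. The means were 93.9 ± 30.1 FPKM with BHB and 73.4 ± 0.587 FPKM in controls (SD, n = 3 each), and the log2 fold change was 0.31 (95% confidence interval, CI, -0.10 to 0.71, limma adjusted p = 0.890). Without BHB 2 the BHB mean was 76.6 FPKM and the log2 fold change 0.06.

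Its paralogue Ptbp2 did not share that library's level, with 12.9, 10.7 and 9.80 FPKM in BHB 1, 2 and 3 and 11.5, 11.4 and 11.6 FPKM in control 1, 2 and 3. Ptbp3, a further paralogue, had 7.96, 7.69 and 7.19 FPKM in the BHB libraries and 7.67, 7.85 and 8.41 FPKM in the controls. FPKM is per length, so levels can be set side by side, and Ptbp1 was the most abundant of the family in each library. The ratio of Ptbp1 to Ptbp2 was 5.71, 11.98 and 8.12 in BHB 1, 2 and 3, against 6.43, 6.38 and 6.33 in control 1, 2 and 3. Both genes varied with library among the BHB samples, Ptbp2 being highest in BHB 1 and lowest in BHB 3. The log2 fold changes of Ptbp2 (-0.05, 95% CI -0.26 to 0.16) and Ptbp3 (-0.06, 95% CI -0.21 to 0.09) missed the threshold (0.949 and 0.921 as limma adjusted p).

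Cpsf6, a subunit of cleavage factor I that with Nudt21 binds RNA upstream of the polyadenylation signal and takes part in the choice of the 3′ end, stood at 8.27, 13.1 and 13.98 FPKM in BHB 1, 2 and 3. Control 1, 2 and 3 had 13.9, 13.4 and 15.4 FPKM. BHB 1 was at 0.592 of the mean of the other 5 libraries, and the groups overlapped. The means were 11.8 ± 3.07 FPKM with BHB and 14.2 ± 1.07 FPKM in controls (SD, n = 3 each), and the log2 fold change was -0.28 (95% CI -0.66 to 0.09, limma adjusted p = 0.890). Without BHB 1 the BHB mean was 13.5 FPKM and the log2 fold change -0.07. Cpsf7, which can take the place of Cpsf6 in the same factor, did not share the low level, with 25.7, 25.3 and 26.4 FPKM in BHB libraries and 26.2, 26.4 and 27.9 FPKM in controls.

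The values of Ptbp1 and Cpsf6 have more than 6 decimals, as do those of 36 of the 49 members (73.5%) and of 57.4% of all genes tested. Among the 206 tested genes at separate levels 165, or 80.1%, had more than 6 decimals. RefSeq lists 5 transcripts of Ptbp1 and 14 of Cpsf6, and a median of 7 over the members against 3 over the tested genes with a match. The part of the transcripts and of the way the deposited values were computed in these levels was not tested. Of the 126 tested genes with a single library apart, 6 had BHB 2 high, as Ptbp1, and 10 had BHB 1 low, as Cpsf6.

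**Figure D2:**
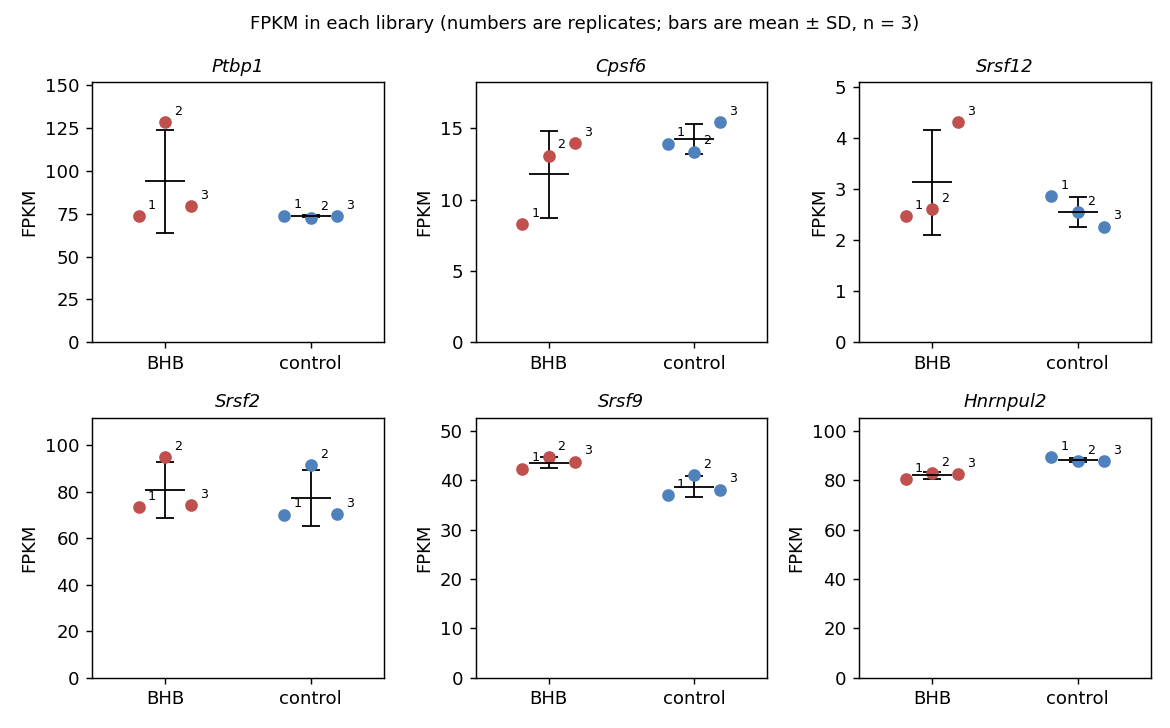
FPKM (y axis, from 0) of 6 members in each BHB and control library, with the replicate number beside each point and the mean ± SD of each group (n = 3). Single BHB libraries stand apart in Ptbp1 (129 FPKM in BHB 2) and Cpsf6 (8.27 FPKM in BHB 1), BHB 3 is the highest in Srsf12 (4.32 FPKM), Srsf2 is high in BHB 2 and control 2, and the groups of Srsf9 and Hnrnpul2 do not overlap.

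The promoters of the genes with these library-wise levels, Ptbp1 and Cpsf6, and of Srsf2, which was high in 1 library of each group, are shown so that their regulatory sequence can be read beside the levels. Each is the 250 bases before the RefSeq start on the minus strand of GRCr8, a later assembly than the one named by the submitters. Capitals mark the letters searched on both strands, GGGCGG (the GC box), CCAAT (the CCAAT box) and TATAAA, and overlapping matches run together.
Ptbp1, chr7:10502958-10503207: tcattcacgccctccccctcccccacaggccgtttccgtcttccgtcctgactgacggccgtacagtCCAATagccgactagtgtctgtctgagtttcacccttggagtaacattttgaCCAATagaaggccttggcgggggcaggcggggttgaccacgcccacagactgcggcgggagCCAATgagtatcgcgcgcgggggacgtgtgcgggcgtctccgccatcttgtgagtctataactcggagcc
Cpsf6, chr7:54873999-54874248: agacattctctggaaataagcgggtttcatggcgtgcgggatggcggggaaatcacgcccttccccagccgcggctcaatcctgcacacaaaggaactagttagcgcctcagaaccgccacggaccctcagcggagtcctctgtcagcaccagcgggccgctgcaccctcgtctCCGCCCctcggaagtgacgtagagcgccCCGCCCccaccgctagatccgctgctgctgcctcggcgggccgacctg
Srsf2, chr10:102554142-102554391: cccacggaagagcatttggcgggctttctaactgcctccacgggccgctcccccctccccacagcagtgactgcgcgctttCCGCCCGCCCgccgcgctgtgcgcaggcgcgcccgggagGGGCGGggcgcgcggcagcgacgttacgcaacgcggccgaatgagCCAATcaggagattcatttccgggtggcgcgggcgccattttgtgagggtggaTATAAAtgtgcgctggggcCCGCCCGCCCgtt

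The Ptbp1 window holds 3 CCAAT boxes and no GC box, that of Cpsf6 2 GC boxes and no CCAAT box, and that of Srsf2 5 GC boxes, 1 CCAAT box and 1 TATAAA. Of the 49 members 47 had a promoter in the RefSeq table. A GC box was present in 74.5% of them, against 59.0% of the promoters of genes tested and 30.5% of all promoters in the table. A CCAAT box was present in 55.3%, against 35.7% and 34.0%, and TATAAA in 12.8%, against 6.04% and 12.9%. The median of CpG dinucleotides was 21 in members, 16 in genes tested and 5 in all promoters. These are counts of letters, not binding sites, and they were not tested.

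Among the 11 SR protein genes 5 had a log2 fold change above 0 and 6 below 0, with a median of -0.02. Srsf9, an SR protein closely related to Srsf1, had the smallest p of the members. It stood at 42.4, 44.7 and 43.8 FPKM in BHB 1, 2 and 3, against 37.0, 41.1 and 38.1 FPKM in control 1, 2 and 3, so every BHB library lay above every control. The means were 43.6 ± 1.16 FPKM with BHB and 38.7 ± 2.13 FPKM in controls (SD, n = 3 each). The log2 fold change was 0.17 (95% CI 0.05 to 0.29, unadjusted p = 0.0119 and adjusted p = 0.881 in limma), which did not pass.

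Srsf5, which is induced by hormones and growth factors in several cell types, was the most abundant SR gene, with 166, 154 and 156 FPKM in BHB libraries and 159.6, 169 and 164 FPKM in controls. The log2 fold change was -0.05 (95% CI -0.15 to 0.05). Srsf2, a constituent of nuclear speckles, was higher in 1 library of each group. It had 73.2, 94.7 and 74.0 FPKM in BHB 1, 2 and 3 and 70.1, 91.2 and 70.3 FPKM in control 1, 2 and 3. The libraries numbered 2 of both groups were the high ones, by a gap of 1.23-fold, which is under the 1.5-fold limit for separate levels. They were the highest pair in 1 member (2.04%), against 7.52% of all genes tested. The log2 fold change of Srsf2 was 0.06, with a 95% CI of -0.23 to 0.35. Srsf1, an SR protein of both constitutive and alternative splicing, did not share these levels. It had 62.2, 56.9 and 56.8 FPKM in BHB libraries and 56.6, 57.8 and 64.8 FPKM in controls, so Srsf2 exceeded Srsf1 by 1.66-fold in BHB 2 and 1.58-fold in control 2, against 1.08-fold to 1.302-fold in the other 4 libraries.

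Srsf12 was the least abundant SR gene tested, with 2.48, 2.61 and 4.32 FPKM in BHB 1, 2 and 3 and 2.86, 2.55 and 2.27 FPKM in control 1, 2 and 3. BHB 3 was the highest, by a gap under the 1.5-fold limit, and without it the BHB mean was 2.55 FPKM, against 2.56 FPKM in controls. Its values have at most 6 decimals. Srsf11, an SR-related protein of the splicing machinery, had 23.7, 21.8 and 24.4 FPKM with BHB and 23.0, 26.1 and 26.0 FPKM in controls (log2 fold change -0.10, 95% CI -0.25 to 0.06). The remaining SR genes were Srsf3, Srsf4, Srsf6, Srsf7 and Srsf10, at means of 16.1 FPKM (Srsf10, a repressor of splicing when dephosphorylated) to 63.8 FPKM (Srsf6), with log2 fold changes from -0.05 (Srsf6) to 0.06 (Srsf3).

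Tra2b, a splicing activator with an arginine- and serine-rich region at each end, was among the steadiest members, with 65.6, 65.7 and 66.2 FPKM in BHB libraries and 65.7, 66.6 and 67.4 FPKM in controls. Its log2 fold change was -0.02 (95% CI -0.10 to 0.07). Tra2a, its paralogue, had 25.2, 21.8 and 22.2 FPKM with BHB and 22.7, 23.4 and 26.6 FPKM in controls, a log2 fold change of -0.07 (95% CI -0.25 to 0.11), and was high in BHB 1 and control 3.

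Among the 19 hnRNP genes 15 had a log2 fold change below 0 and 4 above 0, with a median of -0.04. None passed, and 2 of the 19 had an unadjusted p under 0.05 in limma, against 5.59% of all genes tested. Hnrnpul2, a relative of the nuclear scaffold protein Hnrnpu, stood at 80.5, 82.9 and 82.4 FPKM in BHB 1, 2 and 3, against 89.3, 87.8 and 87.8 FPKM in control 1, 2 and 3. Every BHB library lay below every control, and the means were 82.0 ± 1.26 FPKM with BHB and 88.3 ± 0.848 FPKM in controls (SD, n = 3 each). The log2 fold change was -0.11 (95% CI -0.19 to -0.02, unadjusted p = 0.0227 and adjusted p = 0.881 in limma).

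Hnrnpf, which binds runs of G near splice sites, had 76.0, 68.7 and 73.9 FPKM in BHB 1, 2 and 3, against 62.5, 71.1 and 56.7 FPKM in control 1, 2 and 3. The groups overlapped, since control 2 lay above BHB 2. The log2 fold change was 0.20 (95% CI 0.02 to 0.39, unadjusted p = 0.0355 and adjusted p = 0.881 in limma), and without control 3 it was 0.13. Its paralogues with the same binding preference differed less between groups, with a log2 fold change of -0.07 for Hnrnph1 (95% CI -0.18 to 0.05), 0.01 for Hnrnph2 (95% CI -0.12 to 0.15) and -0.04 for Hnrnph3 (95% CI -0.20 to 0.12).

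Hnrnpa2b1, which also carries mRNAs to cell processes, was the most abundant member, with 728, 658 and 668 FPKM in BHB 1, 2 and 3 and 722, 737 and 733 FPKM in control 1, 2 and 3. BHB 1 lay among the controls and the other BHB libraries below them, a log2 fold change of -0.09 (95% CI -0.20 to 0.01, limma adjusted p = 0.885). Hnrnpa1, a repressor of exon inclusion that shuttles between nucleus and cytoplasm, had 299, 293 and 294 FPKM in BHB libraries and 294, 302 and 296 FPKM in controls, a log2 fold change of -0.01 (95% CI -0.09 to 0.07). Hnrnpa1 has processed pseudogenes of similar sequence, and no source used here says how shared reads were assigned. Hnrnpu, which binds chromatin and nuclear RNA, had 109, 101 and 101 FPKM in BHB libraries and 106, 108 and 112 FPKM in controls, a log2 fold change of -0.07 (95% CI -0.18 to 0.04).

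Part of the hnRNP genes had the same libraries lowest. BHB 2 was the lowest library in 10 of the 19 hnRNP genes, or 52.6%, against 18.2% of all genes tested. Neither BHB 2 nor BHB 3 was the highest in any of them, against 19.0% and 15.3% of all genes tested. BHB 2 and BHB 3 were the lowest pair in 10 hnRNP genes, or 52.6%, against 9.68% of all genes tested, and in 14 of the 49 members. In the other 9 hnRNP genes another pair was lowest. The 10 were Hnrnpa1, Hnrnpa2b1, Hnrnpa3, Hnrnpab, Hnrnpd, Hnrnpdl, Hnrnph1, Hnrnpk, Hnrnpr and Hnrnpu. The other 4 members with this order were Srsf5, Tra2a, Ptbp2 and Cpsf2. BHB 1 did not share it, being the highest library in 6 hnRNP genes and the lowest in 2. Outside the hnRNP genes the share with BHB 2 lowest varied between gene groups, and it is to be read against 18.2% of all genes tested. BHB 2 was the lowest library in 36% of the SR kinases and SR-related proteins and 31.2% of the cleavage and polyadenylation genes. The share was 25% in the core spliceosome and 23.8% in other regulators of alternative splicing. In the exon junction complex and decay genes it was 20%, near that background, and in SR genes 18.2%, the same as the background.

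The summed hnRNP level was 2564, 2399.9 and 2422 FPKM in BHB 1, 2 and 3, against 2501, 2569.6 and 2524 FPKM in control 1, 2 and 3. BHB 1 thus lay among the controls and the other BHB libraries below them, so the groups overlapped. As a share of all FPKM it was 0.706%, 0.653% and 0.669% with BHB and 0.696%, 0.703% and 0.712% in controls. Without BHB 1 the groups did not overlap in 18 of the 49 members, or 36.7%, against 26.2% of all genes tested. Leaving out any one of the other 5 libraries gave the opposite order, with 8.16% to 16.3% of members against 17.4% to 22.4% of all genes tested. No member passed in limma without BHB 1, and 6, or 12.2%, had an unadjusted p under 0.05, against 6.89% of all genes tested. Without one of the other libraries 4.08% to 6.12% of members did, against 3.44% to 5.63% of all genes tested. This order of libraries was noticed in the values and was not tested.

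**Figure D3:**
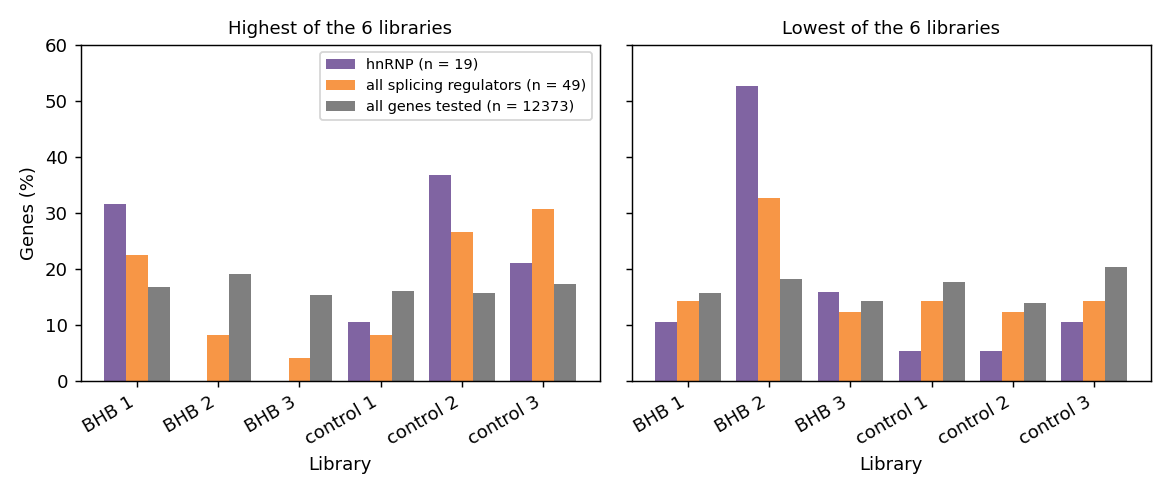
Share of genes (y axis, %) for which each library (x axis) held the highest or the lowest of the 6 values, for the 19 hnRNP genes, the 49 splicing regulators and the 12373 genes tested. BHB 2 is lowest in 52.6% of hnRNP genes and in 18.2% of all genes tested.

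In the SR genes the order was another one. Control 1 was the lowest library in 6 of 11, or 54.5%, against 17.7% of all genes tested, and the summed SR level was 583, 579 and 562 FPKM in BHB 1, 2 and 3, against 548, 596 and 584 FPKM in control 1, 2 and 3. BHB 1 and control 3 were the highest pair in 13 of the 49 members, or 26.5%, against 12.5% of all genes tested.

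**Figure D4:**
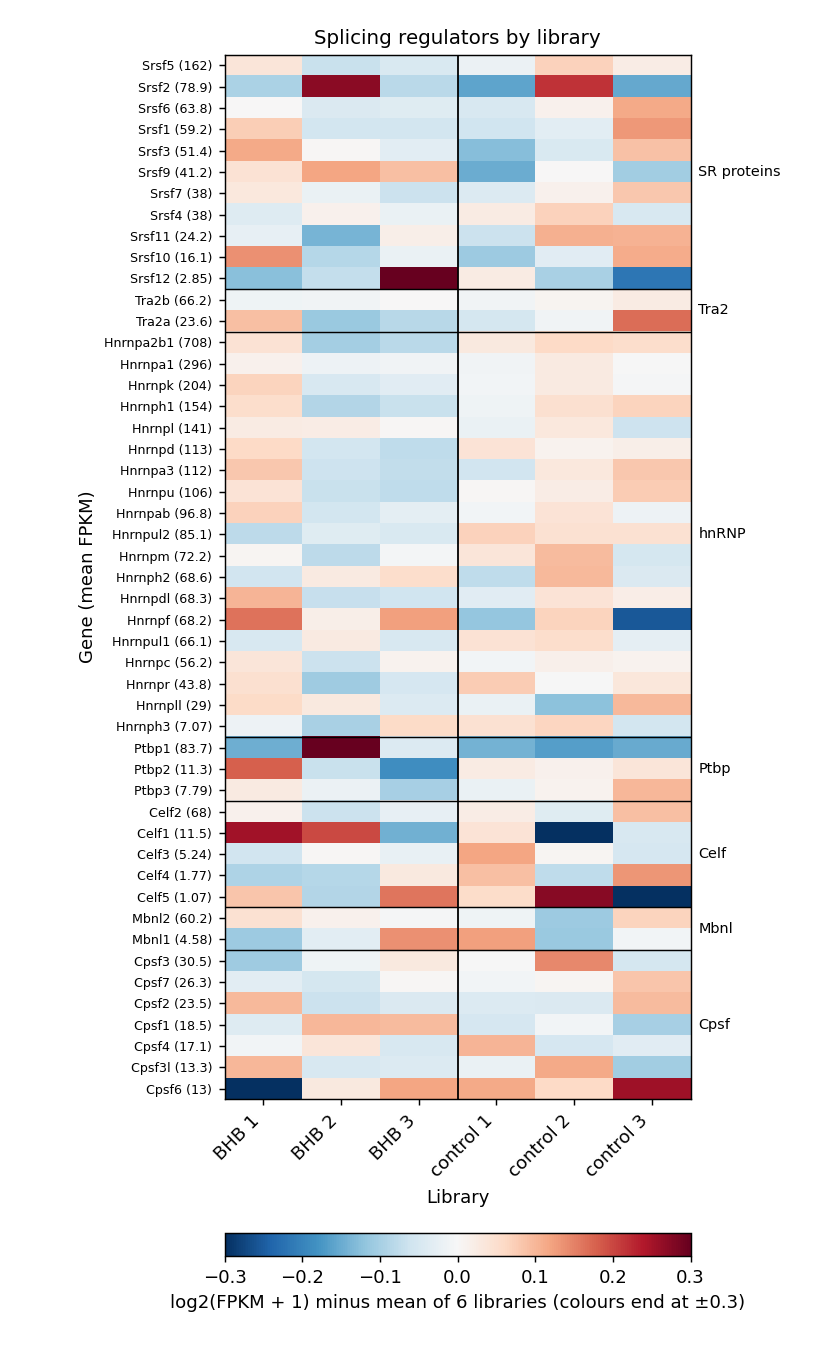
Deviation of each member's log2(FPKM + 1) from its mean over 6 libraries (colour, ending at ±0.3), with libraries on the x axis, BHB left of control, and genes on the y axis by family and level (mean FPKM in brackets). The hnRNP block is mostly blue in BHB 2 and BHB 3. Single dark cells include Ptbp1 in BHB 2, Cpsf6 in BHB 1, Srsf12 in BHB 3 and Celf5 in control 3.

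CELF proteins bind GU-rich RNA in nucleus and cytoplasm. Celf2 was the most abundant of the 5 tested, with 68.5, 64.9 and 66.8 FPKM in BHB libraries and 69.0, 66.2 and 72.4 FPKM in controls (log2 fold change -0.05, 95% CI -0.16 to 0.06). Celf1, which also promotes decay of its target mRNAs, had 13.7, 13.2 and 10.2 FPKM in BHB 1, 2 and 3 and 11.7, 9.05 and 10.97 FPKM in control 1, 2 and 3. Its groups overlapped, with a log2 fold change of 0.20 (95% CI -0.08 to 0.49, limma adjusted p = 0.890). Leaving out 1 library moved the Celf1 value to between 0.11 (without control 2) and 0.33 (without BHB 3, unadjusted p = 0.0151 and adjusted p = 0.930 in limma). The family members known mainly from neurons were low. Celf3 had 4.99 to 5.25 FPKM with BHB and 5.02 to 5.77 FPKM in controls, Celf4 1.59 to 1.82 and 1.62 to 2.03 FPKM in BHB and control libraries, and Celf5 0.919 to 1.28 and 0.459 to 1.46 FPKM. The low value of Celf5 was that of control 3, and its log2 fold change was 0.10 (95% CI -0.31 to 0.52).

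Muscleblind proteins favour adult splicing patterns and are sequestered by CUG repeats in myotonic dystrophy. Mbnl2, prominent in brain, had 62.1, 60.7 and 59.96 FPKM in BHB libraries and 59.6, 55.7 and 63.0 FPKM in controls, a log2 fold change of 0.04 (95% CI -0.08 to 0.16). Mbnl1 had 4.16, 4.45 and 5.13 FPKM with BHB and 5.07, 4.16 and 4.54 FPKM in controls, a log2 fold change of -0.0029 (95% CI -0.22 to 0.21).

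The Cpsf genes act at the 3′ end of the mRNA rather than at exons. Cpsf3, the endonuclease that cuts the pre-mRNA, had 28.2, 30.2 and 31.0 FPKM in BHB libraries and 30.4, 33.7 and 29.3 FPKM in controls (log2 fold change -0.06, 95% CI -0.21 to 0.09). Cpsf1, the scaffold of the complex, had 18.01, 19.9 and 19.8 FPKM with BHB and 17.8, 18.4 and 17.2 FPKM in controls, with BHB 1 among the controls (log2 fold change 0.10, 95% CI -0.03 to 0.24, limma adjusted p = 0.890). Cpsf2, a catalytically inactive relative of Cpsf3, and Cpsf4, which helps to read the polyadenylation signal, had log2 fold changes of -0.0072 and -0.01. The symbol Cpsf3l is an older name of Ints11, the endonuclease of the Integrator complex, which is not part of the cleavage and polyadenylation complex. It had 12.9 to 14.4 FPKM with BHB and 12.3 to 14.5 FPKM in controls.

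Other genes of RNA processing gave no calls either, in limma over all genes tested. Of 44 tested genes of the core spliceosome 21 had a log2 fold change above 0 and 23 below, with a median of -0.01. At an unadjusted p under 0.05 there were 2 higher, Snrpg and Snrpb, which encode proteins of the ring that binds small nuclear RNAs, and 1 lower, Snrpn, together 6.82%, against 5.59% of all genes tested. Snrpg had 61.4, 66.9 and 55.2 FPKM in BHB libraries and 49.4, 57.4 and 45.1 FPKM in controls, groups that overlap (log2 fold change 0.27, limma adjusted p = 0.881). Snrpb had 79.1, 75.2 and 71.3 FPKM in BHB libraries and 68.0, 67.8 and 69.4 FPKM in controls (log2 fold change 0.13, limma adjusted p = 0.881). Snrpn, the paralogue of Snrpb known from neurons, had 0.899, 0.540 and 0.649 FPKM with BHB and 1.66, 1.40 and 1.00 FPKM in controls (log2 fold change -0.47, limma adjusted p = 0.881), near the 1 FPKM minimum, and it shares its transcript with Snurf. Snrpn reached 1 FPKM in control libraries only. It was thus tested only through the group where it was higher, and its place in the count above is no support for a difference. Snrnp70, which binds U1 RNA, was the most abundant of the list, at 107 ± 2.07 FPKM with BHB and 103 ± 2.69 FPKM in controls (SD, n = 3 each).

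Of 25 tested SR kinases and SR-related proteins 8 lay above 0 and 17 below, with a median of -0.03, and 2 of the 25 were lower at an unadjusted p under 0.05, against 2.14% of all genes tested lower and 5.59% in either direction. They were Pnn, a speckle protein, with 64.7, 64.3 and 67.4 FPKM in BHB libraries and 70.1, 70.9 and 71.7 FPKM in controls (log2 fold change -0.11), and Luc7l3, a relative of a yeast U1 protein, with 67.1, 61.9 and 67.2 FPKM and 69.3, 72.9 and 72.0 FPKM in BHB and control libraries (log2 fold change -0.13; limma adjusted p = 0.881 for each). The speckle scaffold Srrm2 was the most abundant, with 147, 159 and 172 FPKM in BHB libraries and 166, 159.9 and 165 FPKM in controls.

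Of 42 tested other regulators of alternative splicing 16 lay above 0 and 26 below, with a median of -0.03, and 3, or 7.14%, were lower at an unadjusted p under 0.05, namely Rbm6, Khsrp and Taf15. Of all genes tested 2.14% were lower at that p, and 5.59% were higher or lower. Rbm6, an RNA binding protein related to Rbm5, had 17.2, 15.2 and 15.9 FPKM in BHB libraries and 18.3, 18.03 and 18.2 FPKM in controls (log2 fold change -0.16, limma adjusted p = 0.881). Khsrp, a KH domain protein of splicing and mRNA decay, had 22.9, 25.0 and 24.0 FPKM with BHB and 25.4, 27.7 and 26.7 FPKM in controls (log2 fold change -0.14, limma adjusted p = 0.881). Taf15, an RNA binding protein that also associates with the transcription machinery, had 62.0, 61.1 and 66.4 FPKM with BHB and 73.0, 67.8 and 67.3 FPKM in controls (log2 fold change -0.13, limma adjusted p = 0.881). Ybx1 was the most abundant, at 426 ± 5.43 FPKM with BHB and 420.5 ± 19.4 FPKM in controls (SD, n = 3 each). Msi2, an RNA binding protein of neural progenitors and astrocytes, had a single control library apart. It stood at 52.2, 45.4 and 45.4 FPKM in BHB 1, 2 and 3 and 9.94, 43.5 and 48.1 FPKM in control 1, 2 and 3.

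Of 16 genes of cleavage and polyadenylation 7 lay above 0 and 9 below, with none at an unadjusted p under 0.05. Rbbp6 had the smallest p, with 20.5, 19.3 and 20.8 FPKM in BHB libraries and 23.1, 21.1 and 21.4 FPKM in controls (log2 fold change -0.11, limma adjusted p = 0.890), followed by the poly(A) polymerase gene Papola (-0.10), and the phosphatase gene Ppp1ca was the most abundant. Nudt21, the partner of Cpsf6, had a log2 fold change of -0.01 (95% CI -0.17 to 0.15). Of 15 genes of the exon junction complex and nonsense-mediated decay 5 lay above 0 and 10 below. At an unadjusted p under 0.05 there was 1, or 6.67%, near the 5.59% of all genes tested (3.45% higher with BHB). The gene was Eif4a3, the helicase that anchors the exon junction complex and the most abundant of the list. It had 70.4, 75.3 and 72.1 FPKM in BHB libraries and 64.6, 67.3 and 69.2 FPKM in controls (log2 fold change 0.11, limma adjusted p = 0.881). Smg5, of the decay pathway, followed with a log2 fold change of 0.10.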

How the data were processed

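The authors deposited FPKM values in 1 table, a column per library. Per the submitters' processing notes, the tools included bcl2fastq 2.0, HISAT2, StringTie and DESeq2 and the build was rn6, without roles or settings. No source used here gives the annotation, strand setting or treatment of shared reads. FPKM cannot be tested as read counts and read depth is unknown. Below 0.1 FPKM the most frequent ratio between libraries, a guide to what 1 read is worth relative to control 1, was 0.853 to 1.01.

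Genes reaching 1 FPKM in 3 or more of the 6 libraries were tested as log2(FPKM + 1) with limma 3.58.1 in R 4.3.3 (lmFit, eBayes with an intensity trend, two-sided, Benjamini-Hochberg over the 12373 genes), BHB against control, with no covariate. Members and lists were chosen with earlier results of these data known. Named members were those with libraries at separate levels, the 10 with the smallest p, the 2 most abundant of each family and all Ptbp, CELF, Mbnl and Tra2 genes; in other lists, genes that passed, the 2 with the smallest p and the most abundant. Others, such as Srsf12, Srsf1, Nudt21, Msi2, Snrpb and Taf15, were named after their values were seen. Of 48 listed splicing regulators 47 and of 27 SR kinases and related proteins 26 were found in the table. All 49 members matched a RefSeq gene (GRCr8), 1 by an older symbol.

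Alternatives changed the pseudocount, FPKM minimum, trend, prior, scaling, weights, block, threshold, gap and the libraries used.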

Additional observations from a re-analysis of the deposited data

How the results depend on the processing

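No member passed in limma under any alternative run, with 1 to 6 members at an unadjusted p under 0.05. The 1 (2.04%) came without the eBayes trend, against 5.74% of all genes tested, and with the replicate block, against 4.9%. The 6 (12.2%) came without BHB 1, against 6.89% of all genes tested. Over all genes tested 7 passed in the main setting, 4 without the eBayes trend, 3 at an adjusted p under 0.01 and 5 to 10 when a library was left out; the cause was not tested, except that a stricter threshold admits fewer genes. Over all genes tested, deviations from group means of libraries of the same number correlated at -0.0899, 0.164 and -0.151 for numbers 1, 2 and 3. Over those genes only the libraries numbered 2 thus deviated together, and the numbers were not taken as a pairing. Libraries of different numbers correlated at -0.122 to 0.203, highest for BHB 1 with control 3 and next for BHB 3 with control 1 (0.186). Along with BHB 2 and control 2, these were the only pairs above 0 over all genes tested. No label gives such a matching, and it was not fitted. Over the 49 members libraries of the same number correlated at -0.170, -0.0676 and -0.262 for numbers 1, 2 and 3. The pairs above 0 in members were BHB 3 with control 1 (0.230) and control 2 (0.123), and BHB 1 (0.152) and BHB 2 (0.0852) with control 3. With the replicate block 2 genes passed, none of them members, with fewer residual degrees of freedom. Members at separate levels numbered 4 with a gap of 1.3-fold (Celf5 and Srsf12 added), against 3.15% of all genes tested. With a gap of 2-fold they numbered 0, against 0.719% of all genes tested, a share too low to expect a member. When a library was left out they numbered 1 to 2, the 1 being without BHB 1 (Cpsf6 lost) or BHB 2 (Ptbp1 lost). With a pseudocount of 0.1 they numbered 3 (Celf5 added, with control 3 low), and 2.4% of all genes tested met the limit. Members whose groups did not overlap numbered 4 to 18 without a library (17.4% to 26.2% of all genes tested). By construction this count cannot fall below the 2 with all libraries. Members with a log2 fold change below 0 numbered 28 to 35 without a library, against 47.9% to 49.2% of all genes tested. The share of all genes below 0 depended on scaling. It was 51.7% with quantile normalization (35 members) and 55.9% with equal sums of FPKM (36 members). The log2 fold change of Mbnl1 turned to 0.0163 with array weights. Over all 49 members 34 of 294 values without a library turned in sign, in 19 members, and 30 members kept their sign. Of the members named by rule 6 turned, and their log2 fold changes ran from -0.0187 to 0.0016 for Hnrnpa1, -0.0081 to 0.0793 for Mbnl2, -0.0724 to 0.0581 for Mbnl1, -0.152 to 0.0306 for Ptbp2, -0.0567 to 0.187 for Srsf2 and -0.112 to 0.266 for Celf5. Of the others, Srsf1, Srsf10, Srsf12, Hnrnpab, Hnrnpc, Hnrnpdl, Hnrnph2, Hnrnph3, Hnrnpk, Hnrnpll, Cpsf2, Cpsf4 and Cpsf3l turned. The leave-one-out counts of groups that do not overlap and the counts below 0 were added after seeing the data. Depth is unknown, so precision at low FPKM cannot be stated.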
